A study of Drosophila melanogaster with 4 samples.

Results

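The genes described here are 10 genes of the early Drosophila melanogaster germline: bam, bgcn and tut, whose products act as a complex; mei-P26, a target of that complex; nanos (nos) and pum; and vas, zpg, otu and Rbp9. They were chosen by name, out of 18358 annotated genes that are not transposable elements. RNA 5' ends were mapped by CAGE (cap analysis of gene expression), which sequences the first bases of capped transcripts. Each sequenced 5' end is a tag and places a transcription start on 1 strand. The deposited tables group tags into clusters. A cluster belonged to a gene if its most used (dominant) position lay, on the same strand, inside the gene or within 100 bp of one of its annotated transcription start sites (TSSs). By this rule 47 of 57330 knockdown clusters and 33 of 32731 control clusters belonged to the 10 genes, and joining those that overlap gave 52 clusters.

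The study asked whether a complex containing Kmg, a zinc finger protein of spermatocytes, holds cryptic promoters silent while germ cells differentiate. The Kmg KD group had the genotype bamGAL4/ KmgRNAi, in which a bam-driven GAL4 switches on RNA interference against kmg in late spermatogonia. The control group carried bamGAL4 alone, so both groups share the driver, and germline stem cells and the earliest spermatogonia are not its target. Testes of males aged 0 to 2 days were used, 150 pairs for each library, and offspring of the crosses were moved from 25 °C to 29 °C. Each group had 2 libraries, which the tables pool in 1 value. No replicate spread can be given, no test was possible, and each difference compares pooled libraries, for which the labels name no separate cultures or flies. The libraries were read at 150 bp in Kmg KD and at 76 bp in control, so read length and genotype cannot be told apart.

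Male germline stem cells give rise to spermatogonia that divide while still joined in a cyst. The Bam protein accumulates during these divisions and, with Bgcn and Tut, represses target mRNAs, an action needed for the switch to spermatocytes. Nanos and Pumilio repress translation in germline stem cells and primordial germ cells, Vasa is an RNA helicase of germ granules, and zpg encodes the innexin of the gap junctions between germ cells and soma. Otu is a deubiquitinase and Rbp9 an RNA-binding protein of the Elav family, and both are known mainly for their roles in the ovary and, for Rbp9, in neurons.

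Levels are given as TPM, that is, per 1000000 clustered tags of the same group, from 34975246 tags in Kmg KD and 56519714 tags in control. Changes are log2((Kmg KD + 1) / (control + 1)), and a gene or cluster of at least 1 TPM in either group was called higher or lower at 4-fold, a log2 ratio of 2 or -2. Ratios of counts are given with 95% exact binomial intervals, which cover counting error only. A start with no called cluster in a group was taken as 0 TPM in that group, but the tables need not list every tag. Single-position clusters, for example, held at least 50 tags in each group. No fold is therefore given against a group without a cluster, and in the plots it is drawn at 3 tags, 0.0858 TPM in Kmg KD and 0.0531 TPM in control. The targeted gene kmg stood at 12.7 TPM in Kmg KD and 48.5 TPM in control, a log2 ratio of -1.86. Of these levels, 12.6 TPM in Kmg KD and 46.7 TPM in control lay off its annotated start. At its annotated start kmg had 0.0858 TPM (3 tags) in Kmg KD and 1.72 TPM (97 tags) in control. By counts this was 20.0-fold lower (6.65 to 98.7), and with 1 TPM added to each level the log2 ratio was -1.32. By the 4-fold rule kmg was not called at its annotated start, off it or summed. Clusters called in both groups had a median log2 ratio of 0.76, 1.70-fold in favour of Kmg KD, and each ratio below stands on that scale.

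Among the early germline genes, Rbp9 and vas had the highest levels off annotated starts in Kmg KD, at 98.8 and 47.4 TPM, against 3.84 and 1.79 TPM in control, and 1 promoter of Rbp9 fell 22.1-fold. At annotated starts, 9 of the 10 genes had at least 1 TPM in either group, 0 rose and 2 (bam and Rbp9) fell, where 7.71% of all 10921 genes measured there rose and 9.53% fell. With levels rescaled by clusters called in both groups, a log2 shift of 0.72, again 0 of the 10 rose and 2 fell there, while 4.66% of all genes rose and 14.9% fell. The bam call came from different dominant positions inside 1 cluster, described below. Off annotated starts, 8 genes were measured and 5 rose (bam, vas, zpg, otu and Rbp9), with 0 falls. The genes not measured were otu at annotated starts and tut and nanos off them, since none of them had a cluster there in either group. The background there was high, since 51.6% of 9343 genes rose off annotated starts and 1.71% fell, so 5 of 8 is not set apart from it. The median log2 ratio of the measured genes was -0.13 at annotated starts, against -0.05 for all genes, and 3.36 off them, against 2.07 for all genes. After the rescaling, tut was under 1 TPM and not measured. The rescaled medians were -1.03 at annotated starts, against -0.68 for all genes, and 2.72 off them, against 1.63 for all genes. With all clusters of a gene summed, bam and otu rose and 0 fell among the 10 genes, where 21.3% of 12864 genes rose and 5.42% fell.

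**Figure D1:**
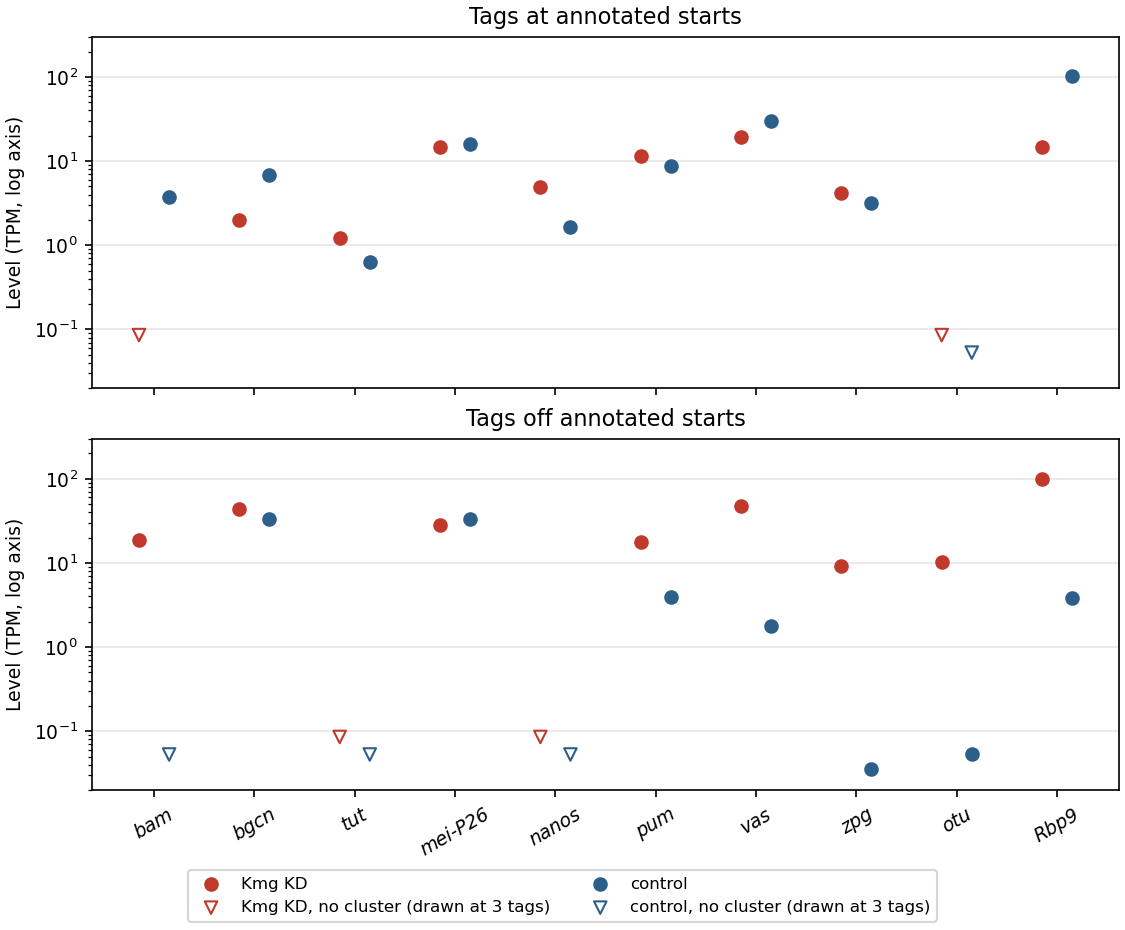
Level of each gene in Kmg KD (red, left) and control (blue, right), in TPM on a log axis, summed over clusters at annotated starts (top) and off them (bottom). Open triangles mark groups with no cluster, drawn at 3 tags. Rbp9 stands at 14.8 TPM in Kmg KD and 104 TPM in control at annotated starts, and at 98.8 TPM in Kmg KD and 3.84 TPM in control off them.

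**Figure D2:**
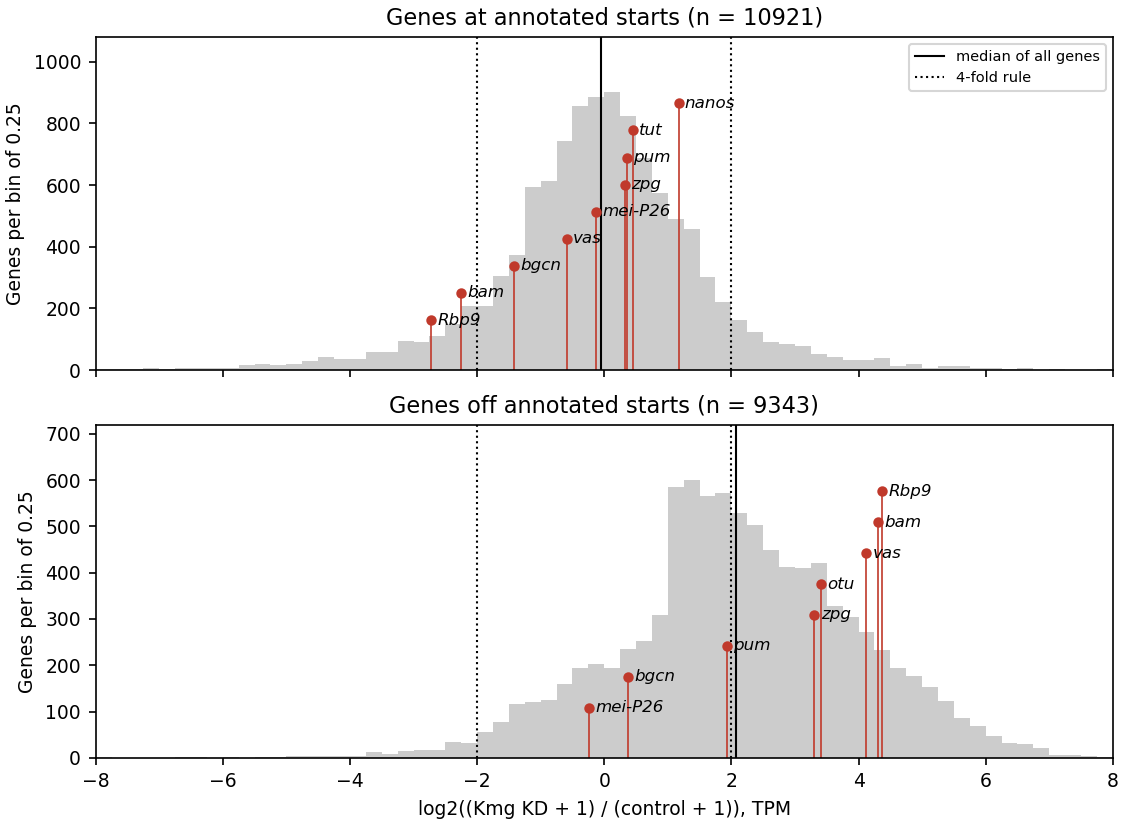
Log2 ratio of Kmg KD to control for all measured genes (grey, bins of 0.25) at annotated starts (top, 10921 genes) and off them (bottom, 9343 genes), with the early germline genes as labelled red pins, whose heights only separate the labels. Dotted lines mark the 4-fold rule and the solid line the median of all genes; genes beyond the range of the axis are not drawn. Rbp9 and bam lie left of -2 at annotated starts and right of 4 off them.

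Rbp9 fell at annotated starts and rose off them, with log2 ratios of -2.72 and 4.37. It has 9 annotated transcripts and 3 annotated TSSs on chromosome 2L. Coordinates here and below are 1-based on BDGP6. The cluster at the third TSS, from 2959107 to 2959181 on the plus strand, had 4.20 TPM (147 tags) in Kmg KD and 92.9 TPM (5249 tags) in control, 22.1-fold lower (18.8 to 26.2), with a log2 ratio of -4.17. Only 0.309% of the 48608 measured clusters of the genome had a ratio this low or lower. This TSS begins 3 of the transcripts, and it is a sharp start, with 87.8% of the cluster's tags at a single base in Kmg KD and 83.8% in control. The base was the same in both groups and was the annotated TSS itself. At the first TSS, 4385 bp upstream, the cluster had 10.6 TPM in Kmg KD and 10.8 TPM in control, so the fall lay in 1 of the gene's promoters. The second TSS, which begins 4 transcripts, had no cluster in either group.

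A broad cluster in the last exon of Rbp9 went the other way. From 2963321 to 2963649 it had 94.5 TPM (3306 tags) in Kmg KD and 2.60 TPM (147 tags) in control, 36.3-fold higher (30.8 to 43.2), with a log2 ratio of 4.73. Its dominant position lay 4308 bp past the third TSS in Kmg KD and 4304 bp past it in control. The position is coding in 1 of the annotated transcripts, with 32.4% of the coding bases downstream, and lies in the 3' UTR of the other 8. The tags were spread over 55 positions in Kmg KD and over 16 positions in control.

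A further Rbp9 cluster in the 5' UTR, 505 bp past the first TSS, had 3.23 TPM in Kmg KD and no called cluster in control, and passed the rule. Summed over the gene, Rbp9 had 114 TPM in Kmg KD and 108 TPM in control, a ratio of 1.06 (1.01 to 1.10), so the summed tags did not show the difference between starts. Off-start clusters held 86.9% of its tags in Kmg KD and 3.57% in control.

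**Figure D3:**
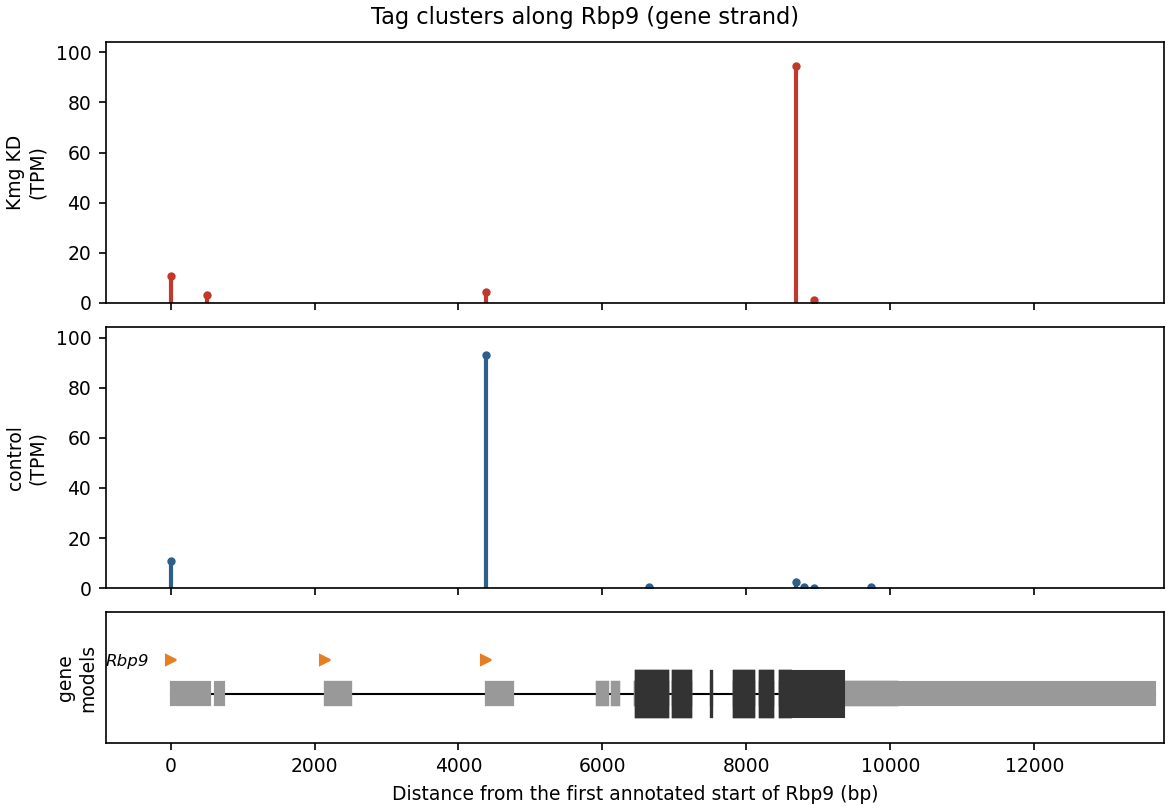
Tag clusters of Rbp9 in Kmg KD (top, red) and control (middle, blue) as lines at the dominant position, with height in TPM, and the overlaid annotated transcripts (bottom; black coding, grey untranslated, orange arrows annotated TSSs) against distance from the first TSS in bp. The tall line at 4385 bp in control, 92.9 TPM, is 4.20 TPM in Kmg KD, and the tall line in Kmg KD, 94.5 TPM, lies in the last exon.

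Rbp9 and pum are also active in neurons. Of 6 neuron markers, 5 rose and 1 fell with all clusters of a gene summed, where 21.3% of all genes rose and 5.42% fell, and their summed level was 194 TPM in Kmg KD and 74.9 TPM in control. Of those 194 TPM, 186 TPM lay off annotated starts, against 9.11 TPM in control, and elav, a defining neuron gene, had no cluster at its annotated starts in either group. At annotated starts the summed neuron level was 8.03 TPM in Kmg KD and 65.8 TPM in control, and nSyb alone had 2.14 TPM in Kmg KD and 65.8 TPM in control there. The control sum was thus all from nSyb. Gad1 and pros went the other way at annotated starts, with 4.09 and 1.80 TPM in Kmg KD and no called cluster in control. The part of neurons in the Rbp9 and pum values was not tested. In whole testes, fewer cells of a type and less RNA per cell cannot be told apart.

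The vas locus on chromosome 2L holds parts of 3 genes. The TSS of vas is also the TSS of solo, a gene for sister chromatid cohesion in meiosis, so the tags of this start cannot be split between them. Its cluster, from 15061641 to 15061716 on the plus strand, had 19.4 TPM (679 tags) in Kmg KD and 29.7 TPM (1681 tags) in control, which at a log2 ratio of -0.59 is short of the 4-fold rule. The dominant position was the same, 24 bp past the TSS.

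Past the end of solo, 5 clusters lay in vas exons, of which 2 rose and the other 3, called in Kmg KD alone at 0.772 to 1.49 TPM, did not pass the rule. The cluster from 15073572 to 15073705, in exon 6 of 8, had 36.3 TPM (1269 tags) in Kmg KD and 0.743 TPM (42 tags) in control, 48.8-fold higher (35.9 to 68.1). Its dominant position, 12027 bp past the TSS, was the same in both groups and leaves 17.3% of the coding bases downstream. A cluster in exon 5, from 15073071 to 15073080, had 5.09 TPM (178 tags) in Kmg KD and 2 tags in control, a ratio of 144 (39.2 to 1197). Here 45.2% of the coding bases lie downstream. Off-start clusters held 70.9% of the vas tags in Kmg KD and 5.67% in control.

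On the opposite strand, vig, which encodes a component of the RNA-induced silencing complex, lies inside vas. Its upstream start fell to 1.26 TPM (44 tags) in Kmg KD, against 242 TPM (13706 tags) in control, a log2 ratio of -6.75. A second vig cluster, whose dominant position lay 116 bp past an annotated vig TSS, had 23.6 TPM in Kmg KD and 40.5 TPM in control. CAGE keeps strand, so these tags are not counted for vas.

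**Figure D4:**
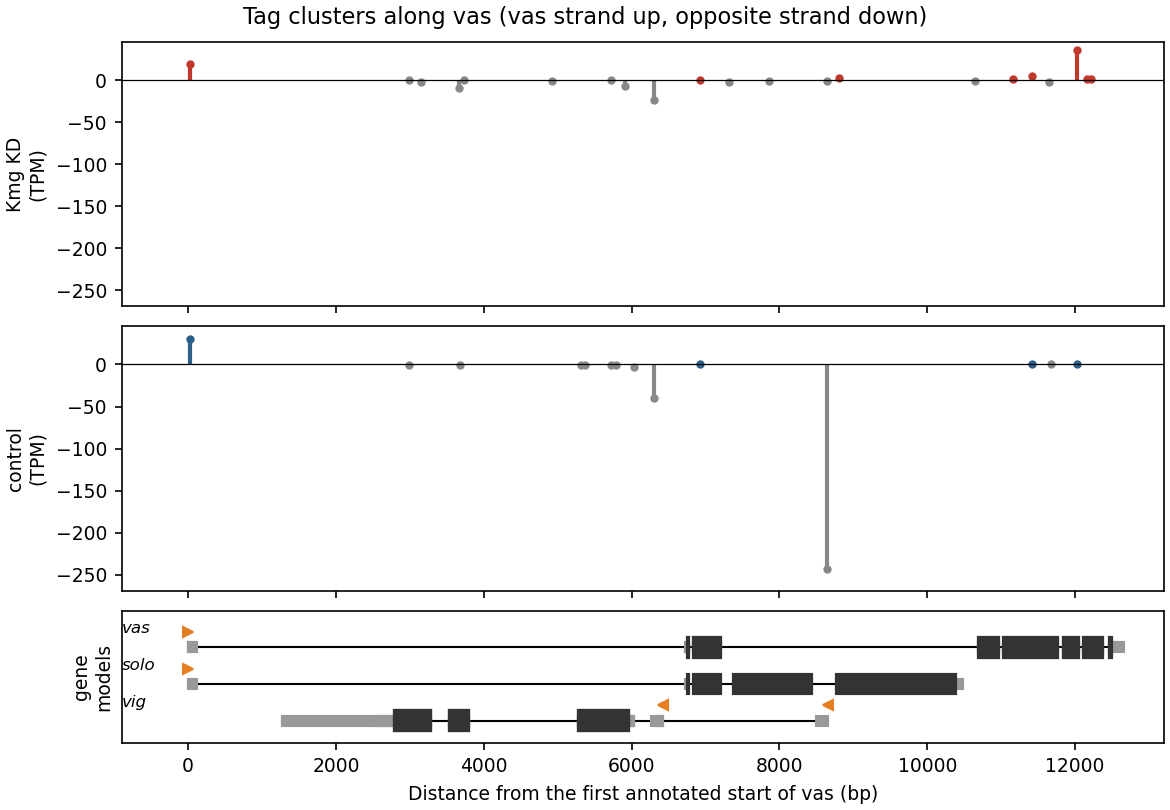
Tag clusters at the vas locus in Kmg KD (top) and control (middle), in TPM, with the vas strand upward in colour and the opposite strand downward in grey as negative values, and the gene models of vas, solo and vig (bottom; symbols as for Rbp9) against distance from the vas TSS in bp. The downward line of 242 TPM at the vig start in control has 1.26 TPM in Kmg KD, and the 36.3 TPM vas cluster at 12027 bp in Kmg KD has 0.743 TPM in control.

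The differentiation factor bam, on chromosome 3R, had its main cluster from 25244930 to 25245178 on the minus strand. It held 17.3 TPM (605 tags) in Kmg KD and 3.79 TPM (214 tags) in control, 4.57-fold higher (3.90 to 5.36), and its log2 ratio of 1.93 lay just under the rule. The dominant position lay 179 bp past the TSS, at a coding base, in Kmg KD and 16 bp past it, in the 5' UTR, in control, a distance of 163 bp. It held 12.2% of the cluster's tags in Kmg KD and 10.7% in control. The interquantile width, the span of the central tags, was 177 bp in Kmg KD and 102 bp in control. Assigned by dominant position, the cluster therefore counts as off-start in Kmg KD and as annotated in control, which is why bam fell at annotated starts and rose off them. With 2 small coding-exon clusters of 0.915 and 0.658 TPM in Kmg KD and none in control, the gene summed to 18.9 TPM in Kmg KD and 3.79 TPM in control. Both groups carry the bamGAL4 transgene. The sources used here do not say whether its RNA begins with bam sequence, and such tags could not be told from those of the gene.

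The partner gene bgcn, on chromosome 2R, did not pass the rule at annotated starts or off them. Its TSS cluster had 1.97 TPM (69 tags) in Kmg KD and 6.92 TPM (391 tags) in control, 3.51-fold lower (2.71 to 4.60), a log2 ratio of -1.41. A cluster in its 5' UTR, 155 bp past the TSS, had 6.66 TPM in Kmg KD and 8.65 TPM in control. Pym, which encodes an exon junction complex partner, lies inside a bgcn intron on the same strand, and the bgcn cluster at the annotated Pym start, at 11.6 TPM in Kmg KD and 4.94 TPM in control, can belong to either gene. An intronic cluster upstream of Pym, from 23857015 to 23857141, had 8.01 TPM in Kmg KD and 19.6 TPM in control. Far downstream, in exon 4 of 5, the cluster from 23853901 to 23854019 rose, with 7.92 TPM (277 tags) in Kmg KD and no called cluster in control, and 10.3% of the coding bases lie past its dominant position. A neighbouring coding-exon cluster had 3.66 TPM in Kmg KD and no called cluster in control and also rose.

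The third partner, tut, on chromosome 3L, had a single cluster. It held 1.23 TPM (43 tags) in Kmg KD and 0.637 TPM (36 tags) in control, a ratio of 1.93 (1.21 to 3.09) that did not pass the rule. Its dominant position lay 40 bp upstream of the TSS in Kmg KD and 69 bp upstream in control. That control position was the farthest from a TSS of any annotated-start cluster of the 10 genes. On the other side of the 100 bp limit, a mei-P26 cluster 101 bp past a TSS had no counterpart called in Kmg KD and 24 tags in control.

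The X-linked gene mei-P26, whose product is a TRIM-NHL protein that Bam, Bgcn and Tut repress, passed the rule neither at annotated starts nor off them. Its first TSS had 14.6 TPM in Kmg KD and 16.1 TPM in control, a log2 ratio of -0.13. Its largest cluster, from 9165498 to 9165588, lay in an intron 440 bp upstream of the third annotated TSS and had 25.1 TPM in Kmg KD and 29.5 TPM in control, with the same dominant base. This start is off the annotation in both groups. Off-start clusters held 65.8% of mei-P26 tags in Kmg KD and 67.6% in control, and the gene's coding-exon clusters reached at most 1.57 TPM in Kmg KD and 2.34 TPM in control.

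The translational repressor genes differed from each other. For nanos, 1 cluster at its TSS on chromosome 3R had 4.95 TPM (173 tags) in Kmg KD and 1.65 TPM (93 tags) in control, 3.01-fold higher (2.32 to 3.91), below the rule, and no off-start cluster was called in either group. The gene pum covers 171340 bp and has 4 annotated TSSs, each with a cluster in both groups. These ranged from 1.54 to 4.95 TPM in Kmg KD and from 1.24 to 4.69 TPM in control, with log2 ratios from 0.04 to 0.87. In pum introns, a cluster from 9219450 to 9219573 had 6.72 TPM in Kmg KD and 2.51 TPM in control, and its dominant positions lay 72 bp apart. Another 5 intronic clusters were called in Kmg KD alone, with 1.32 to 4.35 TPM, and the strongest of them rose. An intronic cluster from 9075100 to 9075145 was called in control alone, at 1.38 TPM (78 tags), and did not pass the rule. The pum tags off annotated starts summed to 17.6 TPM in Kmg KD and 3.89 TPM in control, a log2 ratio of 1.92, just under the rule.

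In zpg, on chromosome 3L, the annotated start was close in both groups, with 4.23 TPM (148 tags) in Kmg KD and 3.18 TPM (180 tags) in control. Clusters in its coding exons rose. The cluster from 6605428 to 6605491, in exon 2 of 3, had 5.66 TPM (198 tags) in Kmg KD and 2 tags in control, a ratio of 160 (43.7 to 1330). Another, in exon 3, had 3.57 TPM (125 tags) in Kmg KD and no called cluster in control. Downstream of them lie 64.4% and 36.9% of the coding bases.

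No tag cluster was called at either annotated TSS of otu, on the X, in either group. Its main cluster, from 8487549 to 8487645 in an intron, had 8.66 TPM (303 tags) in Kmg KD and 3 tags in control, a ratio of 163 (55.3 to 796). A coding-exon cluster had 1.54 TPM in Kmg KD and no counterpart called in control. All clustered otu tags therefore began inside the gene.

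Over the 52 clusters of the 10 genes, 44 had at least 1 TPM in either group, of which 10 rose and 1 fell, against 29.3% and 3.21% of the 48608 measured clusters of the genome. Of the 12 clusters at annotated starts, 0 rose and 1, of Rbp9, fell. Among measured clusters of all genes at annotated starts, 7.55% rose and 8.06% fell. Of the 39 clusters off annotated starts, 31 were measured, 10 rose and 0 fell, while 35.5% of such clusters of all genes rose and 1.53% fell. The 10 that rose comprised 7 in coding exons (vas, zpg and bgcn with 2 each, and Rbp9, where the base is also 3' UTR), 2 in introns (pum and otu) and 1 in a 5' UTR (Rbp9). Off annotated starts, 20 clusters were called in Kmg KD alone and 5 in control alone. All 12 annotated-start clusters were called in both groups. Over the whole genome, 57330 clusters were called in Kmg KD and 32731 in control. The share called in 1 group alone was not counted there, so these counts stand without a background and mark no trait of the 10 genes. The control was sequenced more deeply.

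**Figure D5:**
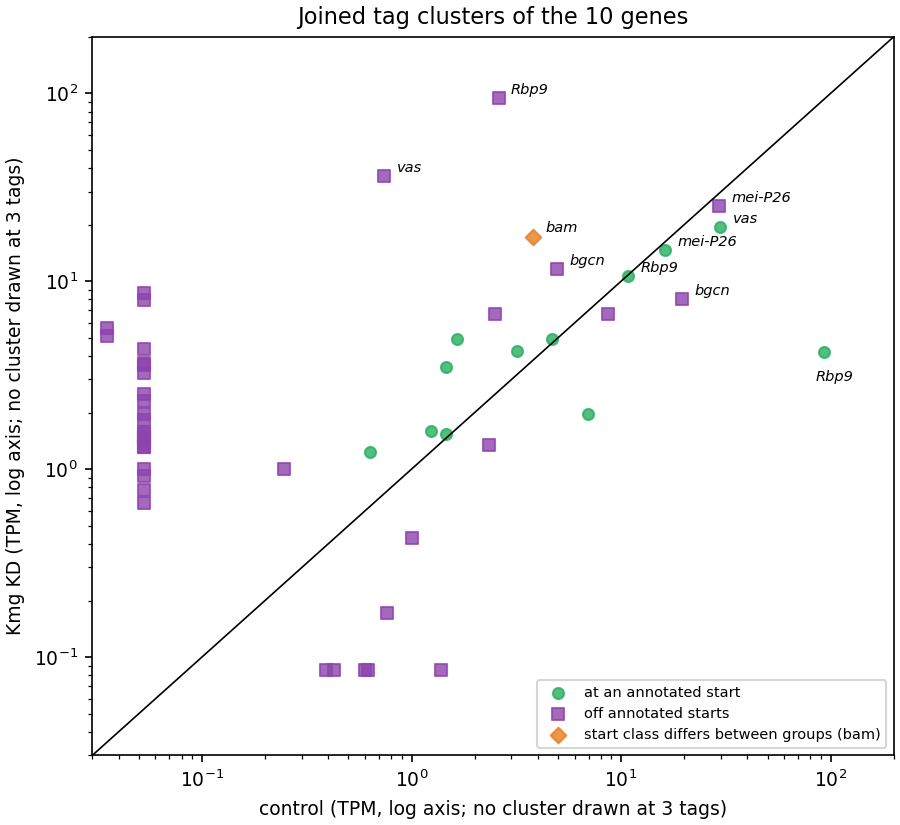
Each of the 52 joined clusters by its level in control (x axis) and Kmg KD (y axis), both in TPM on log axes, with equality as the diagonal and absent clusters at 3 tags; those of at least 10 TPM are labelled. Annotated-start clusters (green) lie within 4-fold of the diagonal except 1 of Rbp9, and bam (orange) differs in start class between the groups. Off-start clusters (purple) in the columns at the left were not called in control or held at most 3 called tags there.

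Of the 8 genes with at least 1 TPM in both groups, 5 (bam, pum, vas, zpg and Rbp9) had most tags off annotated starts in Kmg KD and most tags at them in control, a count made after the values were seen. Among all 10188 such genes, 20.8% did so. The opposite move was made by 0 of the 8 and by 1.59% of all such genes. For bam the count rests on the dominant position alone.

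In other genes of these pathways, 15 of 28 measured (53.6%) rose off annotated starts, near the 51.6% of all genes, and 0 fell. At annotated starts 3 of 36 measured (8.33%) fell, near the 9.53% of all genes, and 0 rose. In the 12 Bam and Nanos partners and targets, 3 of 8 measured off annotated starts rose (51.6% of all genes), and 1 of 12 fell at annotated starts (9.53% of all genes). CycA, the cyclin that Bam and Otu stabilise in the ovary, rose off annotated starts to 56.5 TPM in Kmg KD, against 2.34 TPM in control. Off annotated starts the Nanos and Pumilio partner gene brat rose to 5.98 TPM in Kmg KD, against no called cluster there in control. The deadenylase complex gene Not3 rose there to 13.0 TPM in Kmg KD, against 1.11 TPM in control. At its annotated starts Pop2, a catalytic subunit of the same complex, fell to 10.9 TPM in Kmg KD, against 168 TPM in control. Median log2 ratios of this list were 0.01 at annotated starts and 1.08 off them.

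Of 11 genes of BMP signalling, which keeps bam silent in germline stem cells, 0 of 11 passed the rule at annotated starts (7.71% of all genes rose there and 9.53% fell) and 6 of 9 measured rose off them (51.6% of all genes). Just short of the rule was dpp, the BMP ligand gene, with 5.60 TPM in Kmg KD and 24.7 TPM in control at annotated starts, 4.41-fold lower (3.80 to 5.15), a log2 ratio of -1.96. Off annotated starts, the receptor gene put reached 33.3 TPM in Kmg KD, against 0.867 TPM in control. The receptor gene wit reached 41.6 TPM there in Kmg KD, against 6.62 TPM in control. The Smad genes Mad and Med had 13.4 and 13.2 TPM there in Kmg KD, against 1.03 and 0.283 TPM in control. Transcriptional repressor gene shn had 42.7 TPM off annotated starts in Kmg KD and 3.41 TPM in control. Dad, for an inhibitory Smad, had 13.2 TPM off annotated starts in Kmg KD and no called cluster there in control. The list's median log2 ratios were -0.28 at annotated starts and 2.83 off them.

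Of 8 genes of the fusome, the membranous organelle that joins cyst cells, and the ring canals, 4 of 6 measured rose off annotated starts, where 51.6% of all genes did. Off annotated starts TER94, for an ATPase of the fusome, reached 97.0 TPM in Kmg KD, against 2.51 TPM in control. The adducin gene hts had 10.1 TPM there in Kmg KD and 0.248 TPM in control. Dhc64C, for the dynein heavy chain, had 13.8 TPM there in Kmg KD and 0.566 TPM in control. The filamin gene cher, whose product lines ring canals, had 15.0 TPM off annotated starts in Kmg KD and no called cluster there in control. At annotated starts 1 of 8 fell (9.53% of all genes), the spectraplakin gene shot, at 11.4 TPM in Kmg KD, against 54.9 TPM in control. The medians were 3.20 off annotated starts and -0.79 at them. With all clusters of a gene summed, 0 of the 8 rose and 1 fell, where 21.3% of all genes rose and 5.42% fell. In Kmg KD, 4 of the 8 sums were higher and 4 lower, TER94 among the lower (270 TPM, against 354 TPM in control).

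Among 8 genes of germ plasm and germ cell identity, 2 of 5 measured rose off annotated starts (51.6% of all genes) and 1 of 5 measured fell at them (9.53% of all genes). The gene osk, the germ plasm organiser, had no cluster at annotated starts and rose off them to 19.2 TPM (671 tags) in Kmg KD, against no called cluster in control. Off annotated starts stwl reached 7.98 TPM in Kmg KD, against no called cluster in control. At its annotated starts tud, a germ granule gene, fell to 2.66 TPM in Kmg KD, against 41.3 TPM in control. The medians were 0.04 at annotated starts and 1.75 off them. The female germline regulator ovo had no cluster in either group.

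Marker genes of the cells around and after the early germline are given as summed levels. With all clusters of a gene summed, 21.3% of all genes rose and 5.42% fell. The summed level of 10 spermatocyte and spermatid genes, which mark the labelled tissue, was 4874 TPM in Kmg KD and 6974 TPM in control. The sum and the single genes differed in direction: 2 genes rose, mia and twe, 1 fell, dj (569 TPM in Kmg KD and 2978 TPM in control), and the median log2 ratio was 0.46. For 6 cyst cell genes it was 173 TPM in Kmg KD and 82.0 TPM in control, and 1 gene, so, rose and made up most of the difference (121 TPM in Kmg KD and 19.5 TPM in control), while the median log2 ratio was -0.26. The sum was, for 5 hub genes, 188 TPM in Kmg KD and 199 TPM in control. At annotated starts the hub sum was 49.7 TPM in Kmg KD and 151 TPM in control, and off them 138 TPM in Kmg KD and 48.1 TPM in control. Most of the difference at annotated starts was from Fas3 (5.58 TPM in Kmg KD and 82.9 TPM in control), and 2 of the 4 hub genes measured there were higher in Kmg KD. The 6 sheath muscle genes summed to 301 TPM in Kmg KD and 1201 TPM in control. Of them 1, Act87E, fell past the rule (93.5 TPM in Kmg KD and 648 TPM in control). All 6 were lower in Kmg KD, with a median log2 ratio of -1.46. At annotated starts alone the cyst cell sum was 66.3 TPM in Kmg KD and 67.6 TPM in control. Accessory gland genes summed to 5.12 TPM in Kmg KD and 144 TPM in control, where 4 of 4 fell (5.42% of all genes). In the 5 ovary germline genes, bcd had no cluster in either group, and the list summed to 40.6 TPM in Kmg KD, from Vm26Aa and osk for the most part, and to 3.73 TPM in control, all from grk. The part of a changed mix of cells in the germline values was not tested.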

How the data were processed

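CAGE libraries of testis RNA, 2 per group, were pooled by the authors in 1 value per group. Per the submitters' processing notes, Trim Galore 0.6.6, STAR 2.7.11b and bedtools were used, with BDGP6 and dm6 as builds; for the cluster caller, the notes available here give no name. The deposited cluster levels are headed TPM but are whole tag counts, and the deposited interquantile width is another measure, in bp. Cluster starts were read as 0-based. Tags were scaled to 1000000 per group and placed on Ensembl release 115 gene models (BDGP6), transposable elements left out. A cluster inside several same-strand genes counted for each. Overlapping clusters of both groups were joined. The design had foreseen values per library or pooled values; for pooled values it set a fold rule and no test. Python 3.11.15, pandas 2.3.3 and scipy 1.17.1 were used, checked on simulated data. Genes and lists were chosen with earlier results of these data known. Named clusters were those of at least 5 TPM in either group, at most 6 a gene, with smaller ones given to complete a gene, and list genes were those past 4-fold. No sequences are printed, since no genome sequence was used here.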

Additional observations from a re-analysis of the deposited data

How the results depend on the processing

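Of the early germline genes, vas, zpg, otu and Rbp9 rose off annotated starts, and Rbp9 fell at them, under each alternative run. The bam calls depended on its class: with a start window of 500 bp, or with the joined cluster put at the annotated start it holds (chosen after seeing the data), bam at annotated starts was at 1.93 and not -2.26. The number of the 10 genes that fell at annotated starts was 1 and not 2 with a pseudocount of 3 TPM, with the 500 bp window and with both joined classings, and 1 gene rose there under a 2-fold rule. Of all genes, 6.73% fell there with 3 TPM and 6.77% with the 500 bp window, and 21.2% rose under a 2-fold rule. Rescaling by consensus clusters called in both groups left 5 genes up off annotated starts, where 40.8% of all genes then rose, and turned pum and zpg at annotated starts to -0.29 and -0.23, bgcn off them to -0.33, and the partner and germ plasm medians at annotated starts to -0.64 and -0.64, none of them called before or after. In the pathway lists, genes down at annotated starts numbered 5 after rescaling and 8 under a 2-fold rule, against 3, and 3 rather than 0 were up there under a 2-fold rule. Of all genes, 14.9% fell there after rescaling, and 23.1% fell and 21.2% rose under a 2-fold rule. Off annotated starts 1 list gene rather than 0 was down with a pseudocount of 0.5 TPM or a 2-fold rule, where 2.40% and 5.67% of all genes fell. Off annotated starts the germ plasm list's median was 2.52 with 0.5 TPM, the partner list's was 2.80 with the 500 bp window, and their medians of 1.75 and 1.08 lay past a 2-fold rule. With 0.5 TPM, bam stood at -3.10 at annotated starts and 5.28 off them, beyond Rbp9 at -2.76 and 4.52. The other 222 of 236 alternative values of the main results stayed on their side of the rule or within 1.5 times. Matched through consensus clusters, 10 clusters of the 10 genes rose and 1 fell, as when joined. No paired analysis was possible because the tables pool the libraries of a group, and for the same reason no library could be left out. The tables do not give the depth below which a start went uncalled.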

Other observations

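Clusters on the opposite strand inside pum and nanos were picked after their values were seen. In a pum intron on chromosome 3R, from 9153895 to 9153981 on the plus strand, a cluster in no annotated gene of that strand had 87.2 TPM (3051 tags) in Kmg KD and 2.83 TPM (160 tags) in control, a log2 ratio of 4.53. Opposite-strand clusters within pum numbered 11 in Kmg KD and 6 in control, and summed to 132 TPM in Kmg KD and 12.0 TPM in control. All clusters of the genome numbered 57330 in Kmg KD and 32731 in control. Within vas, those on the opposite strand, vig included, summed to 54.6 TPM in Kmg KD and 290 TPM in control. In the 3' UTR of nanos, the cluster from 19159759 to 19159949 on the minus strand is an annotated start of CG11779 and had 10.2 TPM (355 tags) in Kmg KD and 109 TPM (6165 tags) in control, a log2 ratio of -3.30.

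Past the annotated end of Rbp9, a same-strand cluster from 2968775 to 2968990 had 46.5 TPM (1628 tags) in Kmg KD and 1.29 TPM (73 tags) in control, a log2 ratio of 4.37. Its dominant position lay 402 bp beyond the gene's end, antisense to Ts and in no annotated gene of its own strand. It was looked for in a window of 1 kb past each of the 10 genes, after its values were seen, and the only other cluster found there, past nanos, had 1.00 TPM in Kmg KD and 5 tags in control.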
